A study of Mus musculus with 4 samples.

Results

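The genes described here are 10 S100, annexin, galectin and cytoskeletal genes that are commonly raised in memory and effector T cells. They are *S100a4*, *S100a6*, *S100a10*, *S100a11*, *S100a13*, *Anxa1*, *Anxa2*, *Lgals1*, *Lgals3* and *Vim*. They were taken by symbol from tables of read counts for 55367 gene symbols, and all 10 symbols were present. Of these, 9 had enough counts to be tested among 12403 tested genes, and *S100a4* did not. RNA had been sequenced from sorted splenic CD4+ T cells of C57BL/6 mice, in 2 libraries labelled WT and 2 labelled *Satb1* conditional knockout (cKO). SATB1, a chromatin organiser, regulates many genes of developing and mature T cells. The study's text gives the knockout mice as *Satb1* F/F with *ThPOK-cre*. This Cre deletes floxed genes once a thymocyte has chosen the CD4 lineage. All mature CD4+ T cells, conventional and regulatory, are therefore meant to lack *Satb1*. No treatment was given, the labels state no age or sex of any mouse, the study's methods describe young adult mice of mixed sexes without saying which went into these libraries, and whether the WT mice carried floxed alleles or Cre was not stated. The comparison asks how these transcripts differ between the genotypes. No library came from sorted memory or naive cells, so the tie of these genes to memory is background and was not measured.

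Most S100 proteins are small dimers that change shape on binding calcium and then grip a partner protein. Annexins bind phospholipid membranes when calcium rises, and several work as a complex with an S100 dimer, as ANXA2 does with S100A10. Galectins bind galactose-containing sugars on surface glycoproteins and, outside the cell, can cross-link receptors on T cells, while vimentin is the intermediate filament of lymphocytes. Naive CD4+ T cells hold little of several of these transcripts, and effector, memory and tissue-homing cells hold more, so the family is often read as a sign of antigen experience. Many of them are also abundant in monocytes, macrophages and neutrophils.

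The 4 libraries held between 4495902 and 6555699 gene counts. *Satb1*, the targeted gene, was counted 5677 times in WT 1 and 4390 times in WT 2 against 4958 and 3986 times in the libraries labelled cKO and was not called (log2 fold change -0.05, edgeR adjusted p = 0.877), so every direction below follows the labels. *Xist* was counted 5447 and 4235 times in WT against 9 and 6 times in cKO, and *Ddx3y* on chromosome Y 0 and 0 times against 525 and 597. Effects of sex and of genotype therefore cannot be told apart for any gene below. CD4+ T cell markers were present in every library, with *Cd4* between 1183 and 1279 CPM (reads of a gene per 1e+06 gene counts, after scaling), and *Zbtb7b*, which encodes ThPOK, was called higher (log2 fold change 0.66). Erythroid markers were high in WT 2 and cKO 2, with summed levels of 245 and 130 CPM against 63.3 in WT 1 and 9.15 in cKO 1. Genes were tested in edgeR by a quasi-likelihood F test, and of all 12403, 533 (4.30%) had an adjusted p under 0.05 and are referred to as called.

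Among the 9 tested genes, *S100a6*, *Lgals1* and *Lgals3* were called, all of them lower in the libraries labelled cKO, by between 2.04-fold and 2.37-fold. The share of all tested genes called lower was 1.95%. None of the 9 was called higher, where the share of all tested genes was 2.35%, although *Anxa1* had an unadjusted p = 0.00249 upward. DESeq2 called 0 of them higher and gave no adjusted p for *Anxa1*. The other 5 genes, *S100a10*, *S100a11*, *S100a13*, *Anxa2* and *Vim*, differed by less than 1.20-fold in either direction and were not called. The median log2 fold change of the 9 genes was -0.25, and that of all tested genes was -0.0015.

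The 300-base promoter windows of the called genes *S100a6* and *Lgals3* are shown here because these genes had lower levels in the libraries labelled cKO, and that of *Anxa1* because its estimate went the other way and was the largest among the 9. Each window runs from 250 bases before to 50 bases after the start site, 5′ to 3′ on the strand of the gene, from RefSeq on GRCm38.p6. Capitals mark the letters of a motif that was searched for on both strands. The windows are chr3:90612644-90612943 (+) for *S100a6*, chr14:47373610-47373909 (+) for *Lgals3* and chr19:20390622-20390921 (-) for *Anxa1*. The windows of *Lgals3* and *Anxa1* lie wholly inside the GENCODE span of their gene, and that of *S100a6* in part.

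S100a6: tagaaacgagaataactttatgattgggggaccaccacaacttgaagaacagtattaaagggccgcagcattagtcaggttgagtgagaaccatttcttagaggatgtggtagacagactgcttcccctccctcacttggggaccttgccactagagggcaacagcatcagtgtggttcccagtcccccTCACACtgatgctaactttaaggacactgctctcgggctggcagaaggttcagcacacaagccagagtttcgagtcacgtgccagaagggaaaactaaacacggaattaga

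Lgals3: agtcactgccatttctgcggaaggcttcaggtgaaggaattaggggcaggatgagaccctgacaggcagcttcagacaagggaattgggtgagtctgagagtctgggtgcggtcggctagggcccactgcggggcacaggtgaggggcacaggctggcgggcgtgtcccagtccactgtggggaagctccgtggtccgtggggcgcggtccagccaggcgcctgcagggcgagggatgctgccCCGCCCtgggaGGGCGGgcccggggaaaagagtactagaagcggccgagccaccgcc

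Anxa1: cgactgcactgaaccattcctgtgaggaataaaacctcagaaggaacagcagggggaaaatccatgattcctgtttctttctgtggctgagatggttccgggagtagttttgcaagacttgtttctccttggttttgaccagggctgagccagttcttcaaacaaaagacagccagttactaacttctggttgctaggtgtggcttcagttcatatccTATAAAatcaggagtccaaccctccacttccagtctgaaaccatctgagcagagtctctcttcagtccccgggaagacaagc

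The motifs searched were the TATA box TATAAA, the GC box GGGCGG, the T-box motif TCACAC and the AP-1 site TGANTCA. No 2 marked matches overlap. Among 32851 promoter windows of the same length, 13.6% held the TATA box, 35.7% the GC box, 14.5% the T-box motif and 7.81% the AP-1 site. The *S100a6* window held 1 T-box motif at -61 from the start site and none of the other letters. The *Lgals3* window, with 33.0% A or T the poorest in these bases of the 8 windows found, held GC boxes at -7, on the reverse strand, and at 4. The *Anxa1* window, with 52.7% A or T the richest, held 1 TATA box at -32. Of the 8 genes of the list with a window, *S100a4*, *Anxa1*, *Anxa2* and *Vim* held a TATA box, *S100a11* and *Anxa2* an AP-1 site, and *S100a6* and *S100a13* a T-box motif. The 2 called genes with a window shared none of the 4 motifs. No window was matched for *Lgals1* and *S100a10*.

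*S100a6*, on chromosome 3 from 90612882 to 90624181 of GRCm38 on the plus strand, encodes calcyclin, a partner of the ubiquitin ligase adaptor CACYBP. Its level was 41.5 CPM in WT 1 and 37.9 in WT 2, against 12.6 in cKO 1 and 21.3 in cKO 2. Both libraries labelled cKO were below both WT libraries, and they differed more from each other than the WT libraries did. The mean was 39.7 ± 2.54 CPM (SD, n = 2) in WT and 16.9 ± 6.14 CPM (SD, n = 2) in cKO. This is a 2.37-fold lower level (95% interval 1.67 to 3.35), a log2 fold change of -1.24 with an SE of 0.22 and an edgeR adjusted p = 0.0178. The call held under all 12 alternative settings, with log2 fold changes from -1.66 to -0.91. In bulk RNA, fewer cells that hold a transcript and less of it per cell cannot be told apart.

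*S100a10* (chromosome 3, 93555080 to 93564643), whose product p11 forms a complex with ANXA2 under the membrane, went slightly the other way. It had 232.5 CPM in WT 1 and 222.0 in WT 2, against 241 in cKO 1 and 250.2 in cKO 2. The cKO libraries were both above the WT libraries, by a small margin. It changed by 0.11 on the log2 scale with an SE of 0.09 (edgeR adjusted p = 0.581), and the interval of the fold, 0.93 to 1.25, leaves out a change of the size seen for *S100a6*.

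*S100a11* (chromosome 3, 93520488 to 93526287) encodes calgizzarin, which binds ANXA1 and ANXA2. It stood at 32.4 and 32.9 CPM in the WT libraries and at 25.7 and 29.3 CPM in the cKO libraries. The groups did not overlap, but the log2 fold change of -0.25 with an SE of 0.14 was not called (edgeR adjusted p = 0.399). *S100a13* (chromosome 3, 90514435 to 90524581), needed for the release of FGF1 and interleukin 1 alpha through a route without a signal peptide, had 46.0 and 41.5 CPM in WT against 40.2 and 35.3 CPM in cKO. Again the groups were just apart, and the log2 fold change of -0.22 with an SE of 0.14 was not called (edgeR adjusted p = 0.451).

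*S100a4* (chromosome 3, 90603771 to 90606045), which binds non-muscle myosin and promotes cell motility, was near the limit of detection. Its reads numbered 10 and 7 in the WT libraries, and 3 and 2 in those labelled cKO. Both cKO libraries were at or under a floor of 3 counts, and both WT libraries were above it. Summed over the libraries of a genotype and scaled for depth, its 17 WT counts were 3.08 times its 5 cKO counts, with an exact binomial interval of 1.09 to 10.7 that covers counting error only. It did not pass the low-count filter and got no test in the fit above. With a filter of 1 CPM in 2 libraries its log2 fold change was -1.58 (edgeR adjusted p = 0.227). Of its 584 exonic bases, 302 (51.7%) are shared on the same strand with the annotated gene *Gm42674*, which had 0 counts in every library. HTSeq at its default sets reads that fall within both aside as ambiguous, so reads of *S100a4* may be missing from its count in every library. The overlap mode that the authors used is not given in the sources used here.

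**Figure D1:**
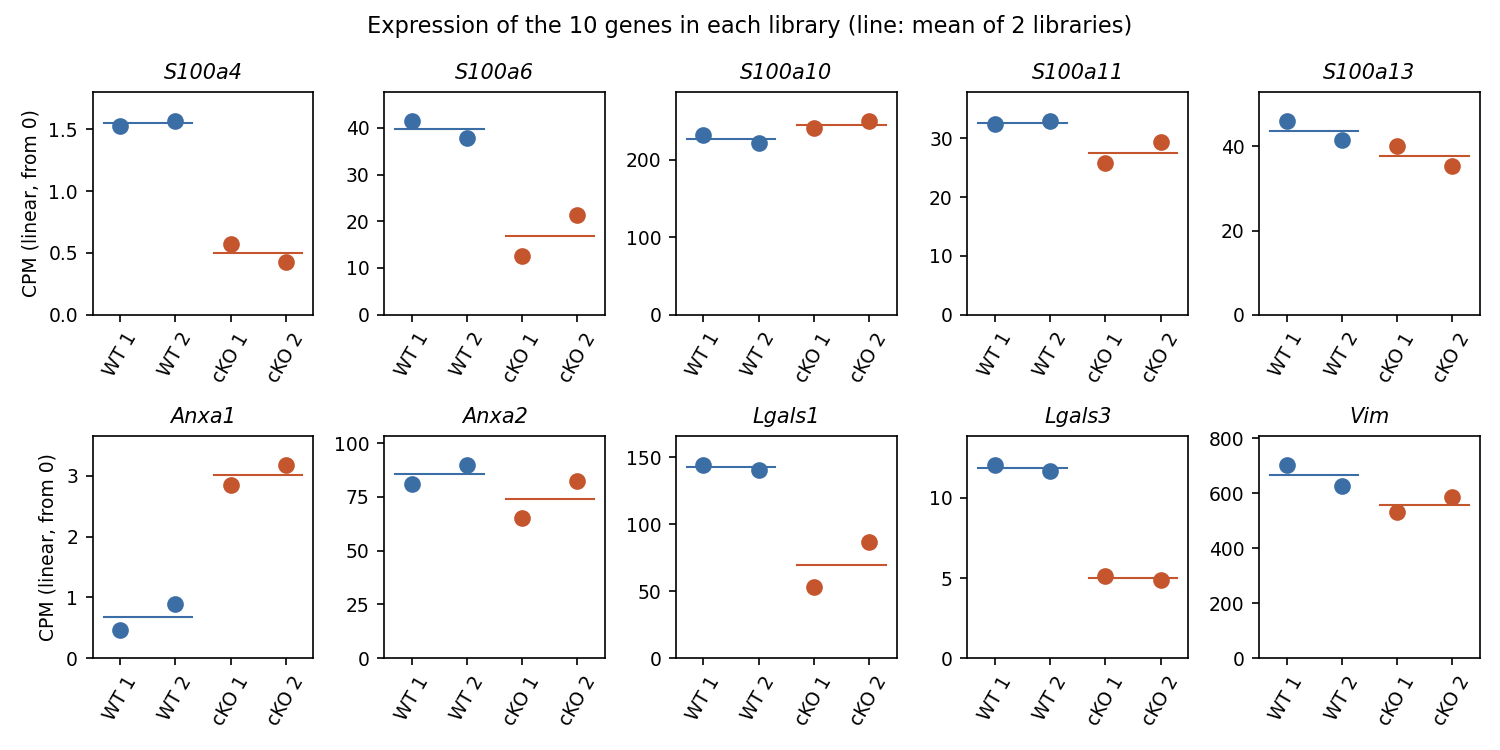
Level of each of the 10 genes in each library, as CPM on a linear axis from 0, with a point for each library (blue WT, orange cKO) and a line at the mean of 2 libraries. *S100a6*, *Lgals1* and *Lgals3* are lower in both cKO libraries, *Anxa1* is higher in both at a level under 4 CPM, and the cKO points of *S100a6* and *Lgals1* lie further apart than their WT points.

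*Anxa1* (chromosome 19, 20373428 to 20390944, minus strand) encodes annexin A1, an anti-inflammatory protein induced by glucocorticoids that acts through formyl peptide receptors. It was the scarcest of the 9, counted 3 and 4 times in WT and 15 and 15 times in cKO, or 0.459, 0.896, 2.86 and 3.19 CPM. The cKO libraries were both above the WT libraries. Its log2 fold change was 2.19 (SE 0.52), but the edgeR adjusted p = 0.0535 missed the threshold, and the change is not called. The ratio of summed counts was 4.74, with an exact binomial interval of 2.04 to 12.8. The gene passed the threshold under the edgeR likelihood ratio test (adjusted p = 0.00363) and without the low-count filter (0.0101), and the largest adjusted p over its alternatives with one was 0.455.

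Annexin A1 is abundant in myeloid cells, whose markers were therefore summed in each library. The summed level of 7 neutrophil markers was 0 and 3.81 CPM in the WT libraries and 39.3 and 24.0 CPM in the cKO libraries, all 7 were higher in both cKO libraries, all 7 were at 0 in WT 1, and of the 4 tested *S100a9*, *Ngp* (edgeR adjusted p = 0.0190) and *Ltf* (0.00332) were called higher. The summed level of 9 monocyte and macrophage markers was 36.3 and 44.4 CPM in WT and 95.9 and 54.4 CPM in cKO, and 2 of the 7 tested, *Lyz2* and *Cybb*, were called higher. Of the other 5, *Itgam*, the gene of CD11b, was lower in both cKO libraries and not called (log2 fold change -0.85), *Adgre1*, the gene of F4/80, was higher in both and not called (1.01), and the genotypes overlapped for *Cd68* (-0.29), *Csf1r* (0.62) and *Tyrobp* (0.42). Of all tested genes, 2.35% were called higher. The part of these cells in the counts of *Anxa1* was not tested.

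*Anxa2* (chromosome 9, 69453620 to 69491795), the membrane partner of S100A10, did not separate the genotypes. Its level was 81.1 and 90.1 CPM in the WT libraries and 65.4 and 82.3 CPM in the cKO libraries, so that cKO 2 lay above WT 1. It was the only tested gene of the 9 whose groups overlapped. Its log2 fold change was -0.21 (SE 0.14, edgeR adjusted p = 0.449), and without cKO 2 it was -0.38 and passed the threshold (0.0410). An antisense gene, *Gm16144*, covers 98 of its exonic bases (2.63%), and the strand setting of the counting is not given in the sources used here.

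*Lgals1* (chromosome 15, 78926725 to 78930465) encodes galectin-1, which binds sugars on CD7, CD43 and CD45 and can promote the death of activated T cells. Its level was 144 CPM in WT 1 and 140.0 in WT 2, against 53.0 in cKO 1 and 86.7 in cKO 2. The cKO libraries were both far below the WT libraries and again differed from each other. The mean fell from 142 ± 3.08 CPM (SD, n = 2) in WT to 69.9 ± 23.9 CPM (SD, n = 2) in cKO. That is 2.04-fold lower (95% interval 1.51 to 2.77), a log2 fold change of -1.03 with an SE of 0.19 and an edgeR adjusted p = 0.0224. Without WT 2 the adjusted p was 0.0670, at a log2 fold change of -1.06.

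*Lgals3* (chromosome 14, 47367751 to 47386160) encodes galectin-3, the galectin with a self-associating tail, which binds branched glycans built by MGAT5 and dampens T cell receptor signals. It had 12.1 and 11.7 CPM in the WT libraries and 5.14 and 4.89 CPM in the cKO libraries. Within each genotype the libraries were close together, at 79 and 52 counts against 27 and 23. The level was 2.36-fold lower in cKO (95% interval 1.58 to 3.53), a log2 fold change of -1.24 with an SE of 0.26 and an edgeR adjusted p = 0.0319. The call depended on the test and on both WT libraries: the adjusted p was 0.11 in DESeq2, 0.130 without WT 1 and 0.174 without WT 2.

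*Vim* (chromosome 2, 13573927 to 13582826) encodes vimentin. It was the gene with most counts on the list, with 705 CPM in WT 1 and 628 in WT 2, against 530 in cKO 1 and 586 in cKO 2. Both cKO libraries were below both WT libraries, by a margin smaller than the gap between the WT libraries. Its log2 fold change was -0.26 (SE 0.11, edgeR adjusted p = 0.266), and it passed the threshold without cKO 2 (adjusted p = 0.00806).

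Counted by separation, 6 of the 9 tested genes had both cKO libraries below both WT libraries, where 25.4% of all tested genes did, and 2, *S100a10* and *Anxa1*, had both above, where 24.8% of all tested genes did. All 3 called genes are among the 6.

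**Figure D2:**
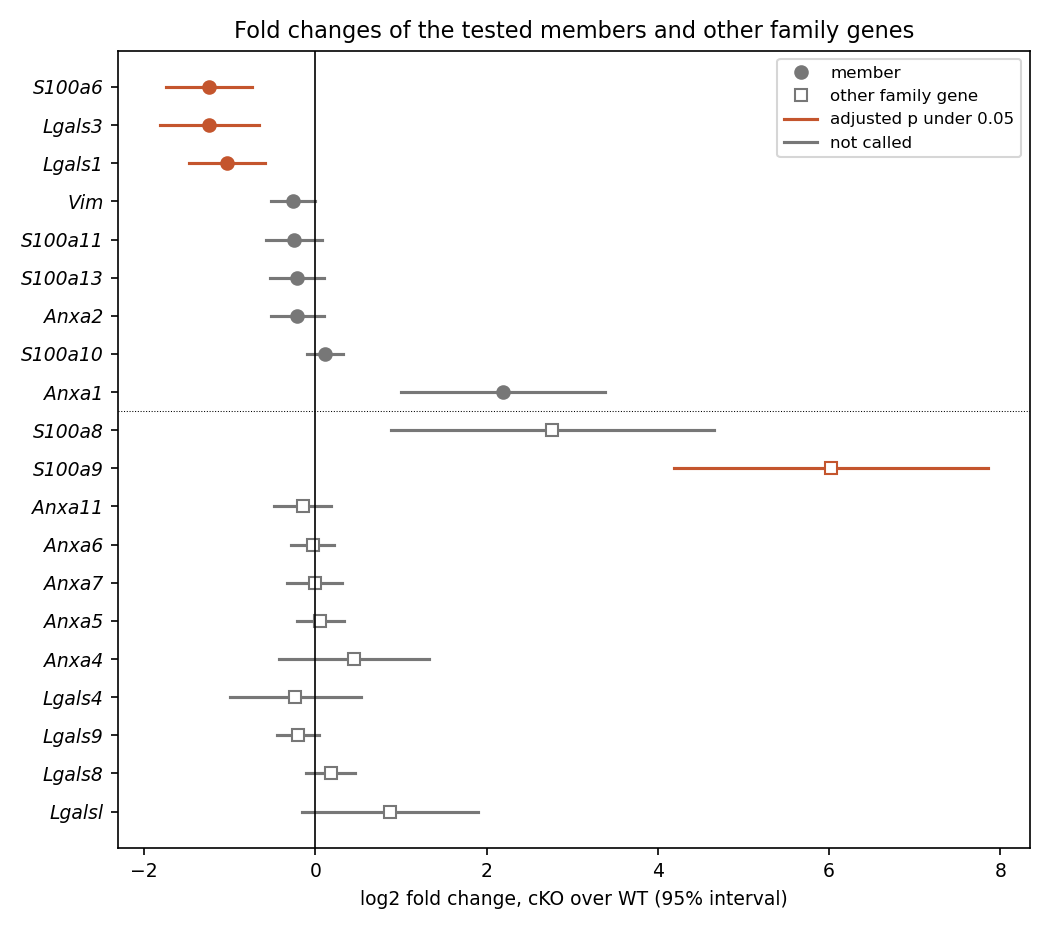
Log2 fold change of cKO over WT (x axis) with its 95% interval for the 9 tested genes of the list (filled circles, above the dotted line) and for other tested S100, annexin and galectin genes (open squares), orange where called. *S100a6*, *Lgals3* and *Lgals1* lie near -1.24 to -1.03, *Anxa1* at 2.19 with a wide interval, and *S100a9* far to the right at 6.02.

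**Figure D3:**
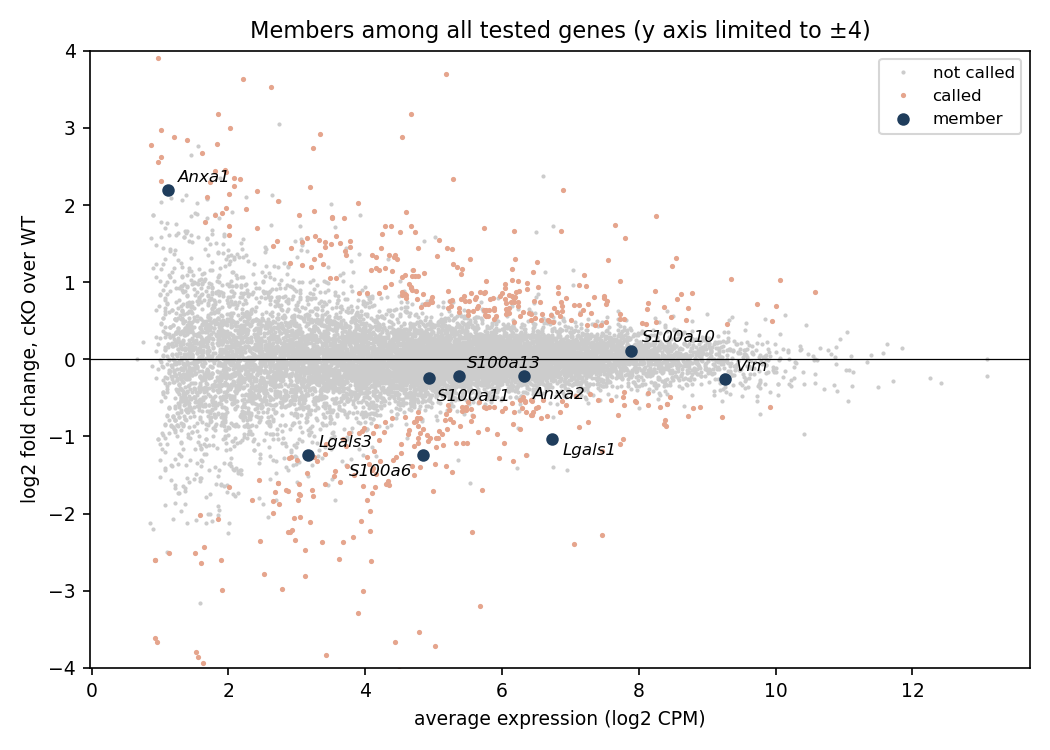
Log2 fold change of cKO over WT (y axis, limited to ±4, which leaves out 32 genes) against average expression in log2 CPM (x axis) for all 12403 tested genes, with called genes in orange and the 9 tested genes of the list in dark blue. *Lgals1*, *S100a6* and *Lgals3* lie among called genes below the line, and *Anxa1* at the low-expression edge among genes of similar fold with and without a call.

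To compare levels between genes, CPM was divided by exonic length. Per kilobase of exons, the order in WT was *S100a10* (188 CPM per kilobase), *Lgals1* (158), *Vim* (141), *S100a11* (64.0), *S100a13* (61.2), *S100a6* (29.0), *Anxa2* (22.9), *Lgals3* (6.39) and *Anxa1* (0.233). *S100a4*, at 2.65 in WT and 0.853 in cKO, was given no place, since reads in the bases it shares with *Gm42674* may be missing from its count. The libraries of *S100a11* and *S100a13* overlapped, and every other gene of these 9 was above the next in both WT libraries. *S100a10*, *Lgals1* and *Vim* stood above at least 97.9% of tested genes with a length on this scale, and *Anxa1* above 0.803% of them. The order changed in the libraries labelled cKO: *Vim*, at 118 ± 8.34 CPM per kilobase (SD, n = 2), stood above *Lgals1*, at 77.4 ± 26.4 (SD, n = 2), and *Anxa2* at 19.8 above *S100a6* at 12.4. The transcripts of the partners S100A10 and ANXA2 stood at 203 and 19.8 CPM per kilobase in cKO.

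The libraries of a genotype also differed among themselves. In cKO 2 the level of *S100a6* was 1.69 times that in cKO 1, that of *Lgals1* 1.64 times and that of *Anxa2* 1.26 times. Of the 9 tested genes, 7 were higher in cKO 2 than in cKO 1 and 2, *S100a13* and *Lgals3*, were lower, while 6068 of the 12403 tested genes were higher in cKO 2. Between the WT libraries 3 of the 9 were higher in WT 2. The gap between the cKO libraries was wider than between the WT libraries for *S100a6* and *Lgals1*, and *Lgals3* had a gap of 0.07 or less on the log2 scale in both genotypes.

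Genes of effector and memory CD4+ T cells went both ways between the cKO libraries. Of 19 tested genes of that list, 13 were higher in cKO 2, among them *Itgb1* (1.90 times), *Nkg7* (1.94), *Ccl5* (1.75) and *Tbx21* (1.56), and 6 were lower, *Tagln2* (0.97 times), *Crip1* (0.96), *Maf* (0.88), *Id2* (0.87), *Ccr6* (0.79) and *Prdm1* (0.74). Of 8 naive T cell genes, 0 were higher in cKO 2, with *Igfbp4* at 836 CPM in cKO 1 and 494 CPM in cKO 2. *Ahnak*, the large scaffold bound by the S100A10 and ANXA2 complex, had 221 CPM in cKO 1 and 519 CPM in cKO 2, both outside the WT values of 332 and 295.5 CPM. With 1 library on each side these gaps have no test, and their part in the spread of *S100a6* and *Lgals1* was not tested.

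**Figure D4:**
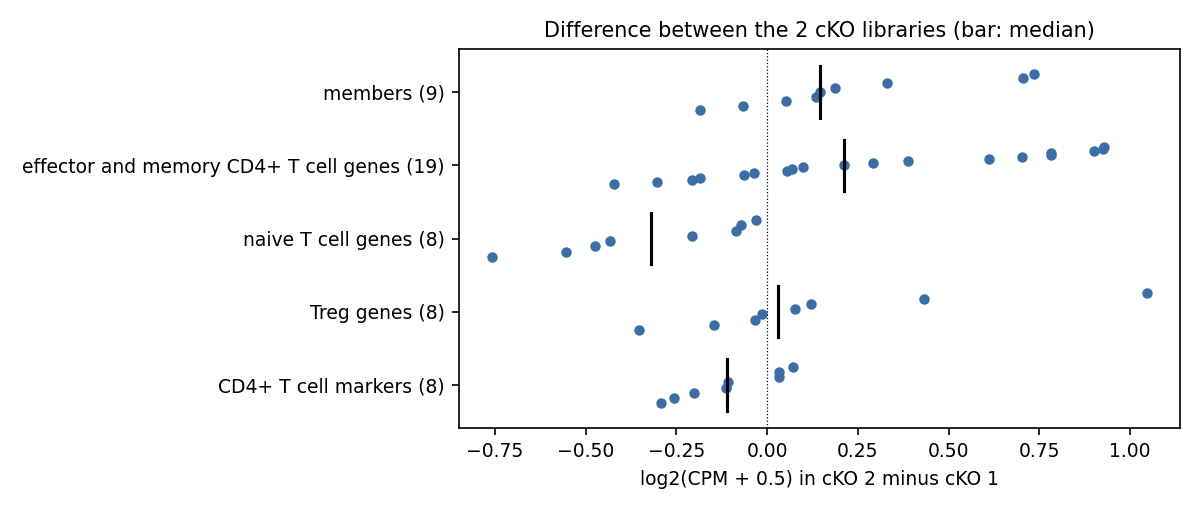
Difference between the cKO libraries, as log2(CPM + 0.5) in cKO 2 minus cKO 1 (x axis), with a point for each tested gene, a black bar at the median and the number of tested genes of each list in brackets. The points at the right end of the first row are *S100a6* and *Lgals1*, 13 of 19 effector and memory genes lie above 0, and all 8 naive genes lie below 0.

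Neighbouring S100 genes did not all share a direction. On chromosome 3, *S100a13*, *S100a4* and *S100a6* lie between 90514435 and 90624181, next to the neutrophil genes *S100a8* and *S100a9*, which end at 90695721, while *S100a11* and *S100a10* lie between 93520488 and 93564643. In the first group *S100a13*, *S100a4* and *S100a6* each had both cKO libraries below both WT libraries, and of these only *S100a6* was called. *S100a9*, beside them, was called higher. *S100a9* was counted 0 and 1 times in WT and 51 and 24 times in cKO (log2 fold change 6.02, edgeR adjusted p = 0.00570), and *S100a8* had 0 and 7 against 30 and 16 and was not called (adjusted p = 0.108). These encode the subunits of calprotectin, a neutrophil protein, and are among the 7 neutrophil markers given above. *S100a1*, the S100 gene outside the list with most counts after them, had between 3 and 10 counts and was not tested. Of the 11 other S100 genes, 3 were at 0 in every library.

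Annexins and galectins outside the list are few, and of all 12403 tested genes 4.30% were called and 2370 had an unadjusted p under 0.05, so that counts of 0 among 4 or 5 genes are near this background. None of 5 tested annexins outside the list was called by edgeR or DESeq2, and 0 had an unadjusted p under 0.05. *Anxa6*, the most highly counted, was between 855 and 930.1 CPM in all libraries, with a log2 fold change of -0.03 (edgeR adjusted p = 0.926, interval of the fold 0.82 to 1.17), and *Anxa5*, the phosphatidylserine binder used to stain dying cells, had 87.6 and 87.2 CPM in WT against 99.5 and 82.3 CPM in cKO. *Anxa7* lay between 50.7 and 60.8 CPM in all libraries. Of 4 tested galectin genes outside the list, 0 were called by either tool and 0 had an unadjusted p under 0.05. *Lgals9*, a ligand of TIM-3, had 166 and 149.7 CPM in WT and 144 and 129.9 CPM in cKO, a log2 fold change of -0.20 (edgeR adjusted p = 0.348), while *Lgals8* had 0.18 (adjusted p = 0.486) and *Lgalsl* 0.87 (0.343). The interval of the *Lgals9* fold, 0.73 to 1.03, leaves out the 2.04-fold and 2.36-fold falls of *Lgals1* and *Lgals3*.

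Of 13 tested genes that encode partners of these proteins, 1 was called, where 4.30% of all tested genes were, so this count is near the background. It was *Cacybp*, the calcyclin-binding protein that S100A6 binds, with 54.3 and 60.3 CPM in the WT libraries and 94.1 and 90.1 CPM in the cKO libraries (log2 fold change 0.69, edgeR adjusted p = 0.0129), opposite in direction to *S100a6*. *Myh9*, the myosin heavy chain bound by S100A4, had between 3375 and 4095 CPM and a log2 fold change of 0.14 (adjusted p = 0.655). The glycoprotein ligand of galectin-1 with most counts, *Ptprc*, which encodes CD45, had a log2 fold change of -0.14 (adjusted p = 0.704). *Plec*, which links vimentin filaments to other structures, had -0.17 (adjusted p = 0.516).

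Beside these genes, 4 of 19 tested effector and memory genes were called, all lower, where 1.95% of all tested genes were called lower. The median log2 fold change of the 19 was -0.10. *Tagln2*, an actin-binding protein of the immune synapse, had 478 and 386 CPM in WT and 241 and 235 CPM in cKO (log2 fold change -0.86, edgeR adjusted p = 0.00683). The others were the chemokine gene *Ccl5* (-1.38, adjusted p = 0.0207), the granule gene *Nkg7* (-1.61, 0.0129) and *Tbx21*, which encodes the Th1 factor T-bet (-1.05, 0.0494). The integrin genes *Itgal* (0.01) and *Itgb1* (0.32) and the receptor chain *Il2rb* (0.37) had log2 fold changes at or above 0 and were not called. *Crip1* (-0.90), *Cxcr6* (-0.95) and *Ccr2* (-0.68) were lower in both cKO libraries and also not called. Of the 19, 7 had both cKO libraries below both WT libraries and 3 had both above, where 25.4% and 24.8% of all tested genes did. Of 8 naive T cell genes, *Ccr7* was called lower (-0.62, adjusted p = 0.0199) and the rest were not called, with a median log2 fold change of -0.24 over the 8, close to that of the genes described here, and with *Tcf7* at -0.16 and *Lef1* at -0.32. Among 8 Treg genes 5 were called higher, where 2.35% of all tested genes were. They were *Foxp3* (1.86), *Tnfrsf4* (0.75), *Nrp1* (0.75), *Tnfrsf18* (0.62) and *Ctla4* (0.58). *Itgae* was called lower (-0.92), and *Il2ra* (0.84) and *Ikzf2* (0.60) were not called.

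Lower levels of *S100a6*, *Lgals1* and *Lgals3* went with lower levels of some markers of other lymphocytes. The summed level of 5 NK cell markers was 47.0 and 37.0 CPM in WT and 14.9 and 18.3 CPM in cKO, of which *Eomes*, a factor also of effector T cells, made up 39.8 and 32.3 CPM in WT and 11.1 and 17.0 CPM in cKO and was called lower, *Klrk1* was lower in both cKO libraries and not called (log2 fold change -1.64, edgeR adjusted p = 0.0904), *Klrb1c* overlapped between the genotypes, *Ncr1* was at 0 in WT 2 and cKO 2, and *Klra8* was at 0 in every library. CD8+ T cell markers summed to 47.7 and 58.5 CPM in WT and 34.3 and 26.8 CPM in cKO, with *Cd8b1* called lower and *Cd8a* between 4.25 and 6.86 CPM. B cell markers went the other way, at 14.1 and 14.8 CPM in WT and 56.6 and 23.6 CPM in cKO, with *Pax5* called higher. The genotypes overlapped for *Cd79b*, *Ebf1* and *Blnk*, and cKO 2 was below both WT libraries for *Cd79b* (4.89 CPM) and *Ebf1* (0). Stromal markers summed to at most 1.52 CPM and platelet markers to at most 4.95 CPM in any library. Dendritic cell markers summed to 5.35 and 6.50 CPM in WT and 4.19 and 2.98 CPM in cKO, and *Itgax*, the 1 of them tested, had a log2 fold change of -1.57 and was not called. *Lgals3*, *S100a6* and *Lgals1*, which macrophages also express, were lower in cKO. Monocyte and macrophage markers summed to 36.3 and 44.4 CPM in WT and 95.9 and 54.4 CPM in cKO, but did not all rise. Of those tested, *Lyz2*, *Cybb* and *Adgre1* were higher in both cKO libraries and *Itgam* was lower in both. The genotypes overlapped for *Cd68*, *Csf1r* and *Tyrobp*. The part of these other cells in the levels of the 3 genes was not tested.

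**Figure D5:**
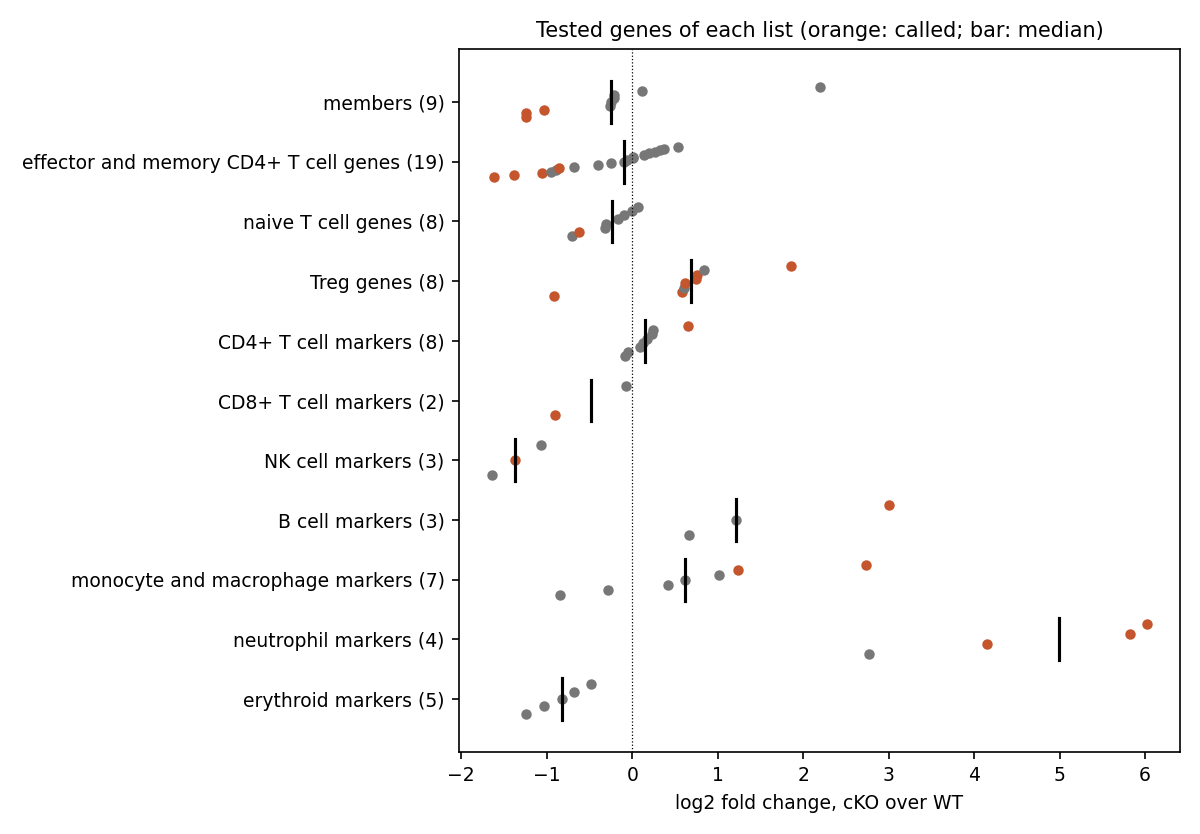
Log2 fold change of cKO over WT (x axis) for each tested gene of the lists named at left, with the number tested in brackets, called genes in orange and a black bar at the median. The list described here holds 3 called genes, all lower, and its median of -0.25 stands beside -0.10 for effector and memory genes, -0.24 for naive T cell genes and 4.99 for neutrophil markers.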

How the data were processed

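The authors aligned reads to mm10 with HISAT2 2.1.0 and counted them per gene with HTSeq (0.11.1 in the submitters' processing notes), and deposited raw counts for each gene symbol in 4 libraries, with no scaling. The annotation and strand setting are not given in the sources used here. HTSeq summary lines were kept out of library sizes and tests. Reads within more than 1 gene, between 1.72% and 1.81% of gene and ambiguous reads, were left out by HTSeq, and reads outside features made up 59.4% to 64.5% of reads aligned to 1 place.

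From these counts, genes passing filterByExpr were scaled by TMM and tested for genotype with the two-sided quasi-likelihood F test of edgeR 4.0.16 in R 4.3.3, with p-values adjusted by Benjamini-Hochberg over 12403 genes and a call at an adjusted p under 0.05. DESeq2 1.42.0 and other settings were alternatives. SE is the absolute log2 fold change divided by the square root of F, and intervals of 95% use 8.73 moderated degrees of freedom. Intervals on summed counts cover counting error only, since reads carry no molecular identifiers. The functions were tested on simulated counts.

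The members and gene lists were chosen with earlier results of these data known. All 10 members were named, and *Satb1*. From the other lists every called gene and up to 3 further genes with the highest mean CPM were named, and for markers of other cells the summed CPM and called genes. Uncalled markers of other cells, *Ahnak*, *Igfbp4* and *Crip1*, *Cxcr6*, *Ccr2*, *Maf*, *Id2*, *Ccr6* and *Prdm1* were named outside this rule, after their values were seen. Positions and lengths come from GENCODE M21 on GRCm38, the assembly also called mm10, and 12207 of 12403 tested genes had a length. Promoters come from RefSeq GRCm38.p6. *Lgals6*, on the galectin list, was not among the symbols. The values of 1 further gene named by this rule are not reported here.

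Replicates were taken from the labels. Log2 CPM correlated by 0.988 between WT and 0.980 between cKO libraries, and their counts differed by more than sampling noise (chi-square per degree of freedom 2.83 and 6.68). Nothing in the labels says that libraries of a genotype came from separate litters or sorts, so p-values measure the spread between these libraries. An exact permutation test of 2 against 2 cannot give a two-sided p under 0.333, and the p-values given here draw on the spread that edgeR shares between genes.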

Additional observations from a re-analysis of the deposited data

How the results depend on the processing

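Of 107 values of the 9 tested genes under 12 alternatives, leaving out *Anxa1* in DESeq2 (2.21, with no adjusted p), 98 kept their direction and side of the threshold, 4 lost a call, 5 gained one and 0 reversed. *S100a6* was called throughout, with adjusted p up to 0.0476. The genes called numbered 1096 with the likelihood ratio test, 1367 without the low-count filter, 1165 with a replicate block, and between 180 (without WT 2) and 1790 (without cKO 2) when a library was left out, 1491 without cKO 1, against 533. Of the 9 genes, between 1 (*S100a6*, without WT 2) and 5 (without cKO 2, with *Anxa2* and *Vim* added) were then called. What causes the shifts was not tested. With a library left out, 1 residual degree of freedom remains and the lone library is assumed to vary like the other genotype.

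*Anxa1* was called with the likelihood ratio test (2.20, adjusted p 0.00363), without the filter (2.18, 0.0101) and with the replicate block (2.18, 0.0195). *Lgals3* lost its call in DESeq2 (-1.24, adjusted p 0.11), and lay between -1.28 and -1.20 with a library left out. On the same basis *Lgals1* ran from -1.42 to -0.72, *Anxa2* from -0.38 to -0.055 and *Vim* from -0.34 to -0.16. The labels state no pairing by replicate number. Deviations of same-numbered libraries correlated by 0.064 over all tested genes, while all 5 erythroid markers were higher in replicate 2 of both genotypes. Whether same-numbered libraries share a sort or preparation was not tested, and the main fit had no block. The block changed no call of the 9 genes but that of *Anxa1*. At these depths *S100a4* and *Anxa1* rest on few counts.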
